A study of Schizosaccharomyces pombe with 5 samples.

Results

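The genes described here encode the proteins of the large (60S) subunit of the cytosolic ribosome of fission yeast, Schizosaccharomyces pombe. They were the spots whose only annotated gene was named rpl followed by a number, together with the acidic stalk protein genes rpp0, rpp101, rpp102, rpp103, rpp201, rpp202 and rpp203. This gave 75 genes of the 4797 with a value on at least 1 array. Every member was printed as 1 spot, and the value of a single gene therefore has no error of its own. They fell into 43 protein families, of which 29 were represented by at least 2 genes (61 genes in all) and 14 by 1 gene.

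A set of 5 cDNA arrays with 2 dyes each compared RNA of growing cells, labelled with Cy5, against RNA of resting cells, labelled with Cy3. The dyes were placed the same way on every array, so an effect of the dye cannot be told apart from one of growth. All cells were of the strain L972. The growing cells were taken 1, 2, 3.5 or 6 h after nitrogen returned to a starved culture, or were in vegetative (logarithmic) growth in the minimal medium EMM2 at 26 °C. The resting cells had spent 48 h without nitrogen in EMM2-N at 26 °C and were arrested in G0, a state in which cells neither grow nor divide. Nitrogen came back with 4 volumes of fresh EMM2, so the effect of nitrogen cannot be told apart from that of fresh medium. There was 1 array per condition and no experiment was repeated, so nothing below has a replicate check.

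A ribosome has a large and a small subunit, and each is built from ribosomal RNA and a set of proteins, most of which are needed in equal numbers. The large subunit holds the peptidyl transferase centre, where amino acids are joined, a tunnel through which the new protein leaves, and a flexible stalk that recruits the elongation factors. In yeasts many of its proteins are encoded by a pair of near-identical genes, called paralogues, at separate places in the genome. Making ribosomes is a large cost to a growing cell, and transcription of ribosomal protein genes is held down when nitrogen is scarce and the TOR pathway, which senses nutrients, is quiet.

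All values are log2 ratios of growing over G0 cells, so that 1 is 2-fold higher than in G0 and -1 is 2-fold lower. They compare shares of polyadenylated RNA, and a change in the amount of such RNA per cell would not be seen in them. The arrays gave 4765 to 4781 genes a value. Median ratios over all genes lay between 0.00 and 0.14. Ratios were deposited with 9 decimals for 1 h and 2 h but with 3 decimals for the later arrays. A difference across these 2 sets of columns cannot be told apart from one between their processing. Spots repeated within an array, those of cdc2, nda3 and nuc1, had a pooled SD of 0.18 to 0.25 (47 spots per array). The 5 listed genes of nitrogen starvation were below G0 on every array. The lowest at 1 h, isp5, which encodes an amino acid permease, stood at -5.30, -5.45, -5.16, -3.84 and -4.48 in array order (1 h, 2 h, 3.5 h, 6 h, vegetative). Within 2-fold of G0 were mei2 at 1 h (-0.51), fbp1 at 3.5 h (-0.79) and ste11 at 6 h (-0.55). Of 2 listed growth genes, nuc1 was above G0 throughout, at 3.45, 3.42, 2.45, 1.55 and 0.79. The other, cdc22, was below G0 at first, at -0.68, -0.68, 1.605, 1.20 and 0.85.

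Nearly the whole set of large subunit genes was more than 2-fold above G0 on every array. At 1 h, 72 of 74 members with a value were at least 2-fold higher and 1 was 2-fold lower, where 23.4% of all genes were higher and 22.6% lower. The median was 2.19, a ratio of 4.57. At 2 h the counts were again 72 and 1 of 74, with a median of 2.26 (22.8% of all genes higher, 21.3% lower). At 3.5 h, 72 of 75 were higher and 1 lower, with a median of 2.59 (18.9% and 16.7% of all genes), and at 6 h again 72 and 1, with a median of 2.22 (15.6% and 14.9%). In vegetative cells 72 of 75 were higher and 0 lower, with a median of 1.88 (15.8% and 14.6%). The 72 genes were 2-fold higher on all 5 arrays, as were 7.75% of the 4708 genes with all values.

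These 72 genes, picked by their values, lay close together. The SD across them was 0.29, 0.28, 0.34, 0.30 and 0.31 in array order, while the SD across all genes was 1.53, 1.59, 1.31, 1.17 and 1.14. Across all members with a value the SD was 0.69, 0.78, 0.68, 0.60 and 0.51, so part of the closeness comes from the picking. The repeated spots had an SD of 0.25, 0.22, 0.22, 0.24 and 0.18 on the same arrays. The spreads of the 72 genes and of these spots were closest at 1 h, 2 h and 6 h, and the 72 genes spread more widely than the spots at 3.5 h and in vegetative cells. The lowest and highest ratios of the 72 genes were 1.55 and 2.77 at 1 h, 1.57 and 2.93 at 2 h, 1.77 and 3.58 at 3.5 h, 1.34 and 2.84 at 6 h, and 1.07 and 2.46 in vegetative cells. The upper end of the middle 50% of all genes was between 0.63 and 0.91 over the 5 arrays. The 72 genes lay above it by the way they were picked, as at least 2-fold higher on every array.

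**Figure D1:**
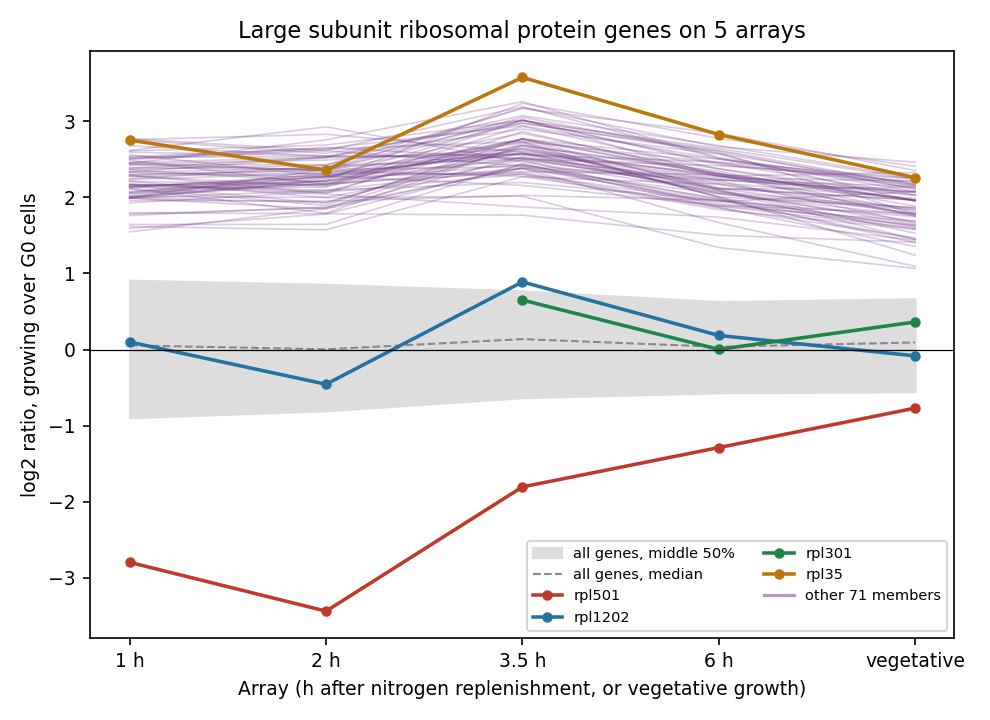
Log2 ratio over G0 (vertical axis) of each large subunit gene on the 5 arrays (horizontal axis), 1 line per gene, with the median and middle 50% of all genes in grey. The band of 72 genes stays above 1 throughout, rpl35 is the highest at 3.5 h (3.58), and rpl501 (-3.44 at 2 h), rpl1202 (0.89 at 3.5 h) and rpl301 (0.65 at 3.5 h) run below it.

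The 3 genes outside the band were rpl501, rpl1202 and rpl301, each with a paralogue inside it. The gene rpl501 encodes L5, which carries the 5S ribosomal RNA into the large subunit together with L11. It stood at -2.79, -3.44, -1.80, -1.29 and -0.77 in array order, below G0 on every array and the lowest member on each. Its paralogue rpl502 stood at 2.01, 2.18, 2.33, 1.86 and 1.47 on the same arrays. The genes of this pair were 5.62 apart on the log2 scale at 2 h and 2.24 apart in vegetative cells.

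The gene rpl1202 encodes L12, which sits at the base of the stalk. It stood at 0.10, -0.46, 0.89, 0.19 and -0.08 in array order, within 2-fold of G0 on all 5 arrays. Its paralogue rpl1201 stood at 2.05, 2.18, 2.52, 2.08 and 1.65. The gene rpl301 encodes L3, a protein that reaches the peptidyl transferase centre. It had no value at 1 h and 2 h and stood at 0.65, 0.00 and 0.36 on the 3.5 h, 6 h and vegetative arrays, again within 2-fold of G0. Its paralogue rpl302 stood at 2.51, 2.63, 2.73, 2.46 and 2.16.

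Protein-coding neighbours on the chromosome were looked up for these 3 genes in the RefSeq annotation. Next to rpl501 lay SPAC3H5.11, which was also below G0 on every array, at -1.22, -1.53, -0.96, -0.86 and -1.05, while bop1 on the other side stood at -0.17, -0.63, 0.73, 0.45 and 0.26. Next to rpl1202 lay sds21, at 1.11, 1.10, 0.15, 0.46 and 0.27, and mlo1, at -1.08, -0.08, 0.44, 0.66 and 1.03. Next to rpl301 lay dbr1, at 0.22, -0.04 and 0.12 on the 3.5 h, 6 h and vegetative arrays, and mde10, at 0.87, 0.47 and 0.39. Whether signal of a neighbour entered these spots was not tested.

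The stalk genes were all at least 2-fold above G0 on every array apart from rpl1202. The stalk is built on P0, encoded by rpp0, which holds dimers of the acidic proteins P1 and P2. The rpp0 ratio was 2.33, 2.27, 2.34, 2.30 and 1.77 in array order, the same over the 4 times to within 0.07. The P1 genes were at 2.29, 2.05, 2.86, 2.28 and 1.96 for rpp101, at 2.12, 1.89, 2.78, 2.29 and 1.75 for rpp102, and at 1.99, 1.93, 2.65, 2.09 and 1.45 for rpp103. All 3 had their highest ratio at 3.5 h.

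The P2 genes differed more among themselves. At 1 h rpp203 was the highest of all members at 2.77, rpp201 was at 2.43, and rpp202 was among the 5 lowest at 1.62. At 2 h they were at 2.61, 2.36 and 1.57. The distance between the highest and lowest P2 gene was 1.15, 1.04, 0.92, 0.42 and 0.30 in array order. At 3.5 h rpp203, rpp201 and rpp202 stood at 3.19, 2.98 and 2.27.

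The L1 arm, a mobile arm that helps spent tRNA leave the ribosome, is made by rpl101 and rpl102. Their ratios were 2.39 and 2.49 at 1 h, 0.10 apart, and 2.36 and 2.17 at 2 h. On the later arrays rpl101 was the higher, with 3.18 for rpl101 and 2.38 for rpl102 at 3.5 h, 2.66 and 1.95 at 6 h, and 2.46 and 1.75 in vegetative cells. In vegetative cells rpl101 was the highest member of all.

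Among genes of the 5S RNA particle other than rpl501, the L11 paralogues kept close to each other. The ratios of rpl1101 were 2.07, 2.31, 2.30, 1.84 and 1.58 and those of rpl1102 were 2.00, 2.37, 2.41, 1.92 and 1.63. They were at most 0.10 apart on any array.

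Around the peptidyl transferase centre, the paralogues of L10, a protein that joins the subunit late in its assembly, were among the lowest members at 3.5 h. The rpl1001 ratio was 1.80, 1.79, 1.77, 1.502 and 1.41 in array order, and that of rpl1002 was 1.96, 1.95, 2.03, 1.96 and 1.58. The genes of L8 were higher: rpl802 stood at 2.53, 2.53, 2.56, 2.46 and 2.25, and rpl803 at 2.50, 2.61, 2.41, 2.23 and 2.14. Between 2 h and 3.5 h these 4 genes and rpl302 differed by -0.20 to 0.10.

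L4 and L17 line the exit tunnel, and the small protein L39 lies deep in its wall. The L17 genes were near the top at 1 h, with 2.54 for rpl1701 and 2.68 for rpl1702, and reached 2.94 and 3.02 at 3.5 h. The L4 genes rpl401 and rpl402 had 2.03 and 2.51 at 1 h and 2.16 and 2.51 at 3.5 h, with their highest ratios, 2.28 and 2.66, at 2 h. The rpl39 ratio was 2.11, 1.79, 2.68, 2.31 and 1.81 in array order.

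Proteins at the mouth of the tunnel, where chaperones and the signal recognition particle meet the new protein, include L19, L22, L25, L26, L31 and L35. The gene for L35, rpl35, was the highest member at 3.5 h and among the 5 highest at 1 h, 6 h and in vegetative cells. It stood at 2.75, 2.36, 3.58, 2.83 and 2.26 in array order. The genes rpl22 and rpl31 followed it at 3.5 h, at 3.26 and 3.24. The genes of L25, the main docking site at the tunnel mouth, were on the low side at 1 h, with 1.78 for rpl2501 and 1.99 for rpl2502, and at 1.24 and 1.66 in vegetative cells, where rpl2501 was the sixth lowest member. Of the other genes at the tunnel mouth, rpl26 stood at 2.17, 2.16, 3.01, 2.45 and 2.04, and rpl1901 and rpl1902 were at 2.57 and 2.49 at 3.5 h.

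Among the 41 genes for other large subunit proteins all were at least 2-fold higher on each array, with medians of 2.23, 2.28, 2.61, 2.19 and 1.96. The lowest of them at 1 h were rpl4302 (1.55), rpl2301 (1.59) and rpl2302 (1.64), and at 2 h rpl2302 (1.65) and rpl2301 (1.78). At 3.5 h they were rpl2402 (1.88) and rpl3002 (2.02), and at 6 h rpl3002 (1.34) and rpl29 (1.67). In vegetative cells rpl3002 (1.07) and rpl29 (1.09) lay closest to the 2-fold limit. L23 and L24 lie at the face that meets the small subunit. The highest of these 41 genes at 1 h were rpl18 (2.76), rpl2101 (2.76) and rpl44 (2.62), at 2 h rpl44 (2.93), rpl18 (2.83) and rpl901 (2.69), at 3.5 h rpl2702 (3.17), at 6 h rpl2702 (2.84) and rpl3401 (2.68), and in vegetative cells rpl2702 (2.35) and rpl1801 (2.33).

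Paralogues of most families lay close together. Leaving aside the families of L3, L5 and L12, the median distance between the highest and lowest gene of a family was 0.16, 0.20, 0.22, 0.25 and 0.19 in array order (26 families). The number of families at least 2-fold apart was 3 of 28 at 1 h (L5, L12 and P2), 3 of 28 at 2 h (the same), 3 of 29 at 3.5 h (L3, L5 and L12), and 4 of 29 at 6 h and in vegetative cells (L3, L5, L12 and L30). The L30 genes were 0.22 apart at 1 h, and 1.28 apart at 6 h. There rpl3001 stood at 2.62 and rpl3002 at 1.34. Over both genes' arrays, rpl3001 had 2.43, 2.43, 3.01, 2.62 and 2.16, and rpl3002 had 2.21, 2.00, 2.02, 1.34 and 1.07.

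Paralogous genes can share signal on cDNA spots, and how far they did was not tested. Of the 72 genes in the band, 32 pairs belonged to the same family, and their median distance was 0.17, 0.20, 0.21, 0.23 and 0.19 in array order. For the 2524 pairs of different families it was 0.29, 0.28, 0.32, 0.29 and 0.30. A pair of L33 genes that the symbol rule does not take, singled out after their values were seen, also differed: rpl35A02 stood at 0.96, 1.12, 0.89, 0.94 and 0.76, and rpl35A01 at 2.31, 2.28, 2.36, 2.08 and 1.93. The genes ubi1 and ubi2 encode L40 fused to ubiquitin. They were at 2.52, 2.63, 2.86, 2.53 and 2.14 for ubi1 and at 1.53, 1.54, 1.33, 0.94 and 1.08 for ubi2.

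**Figure D2:**
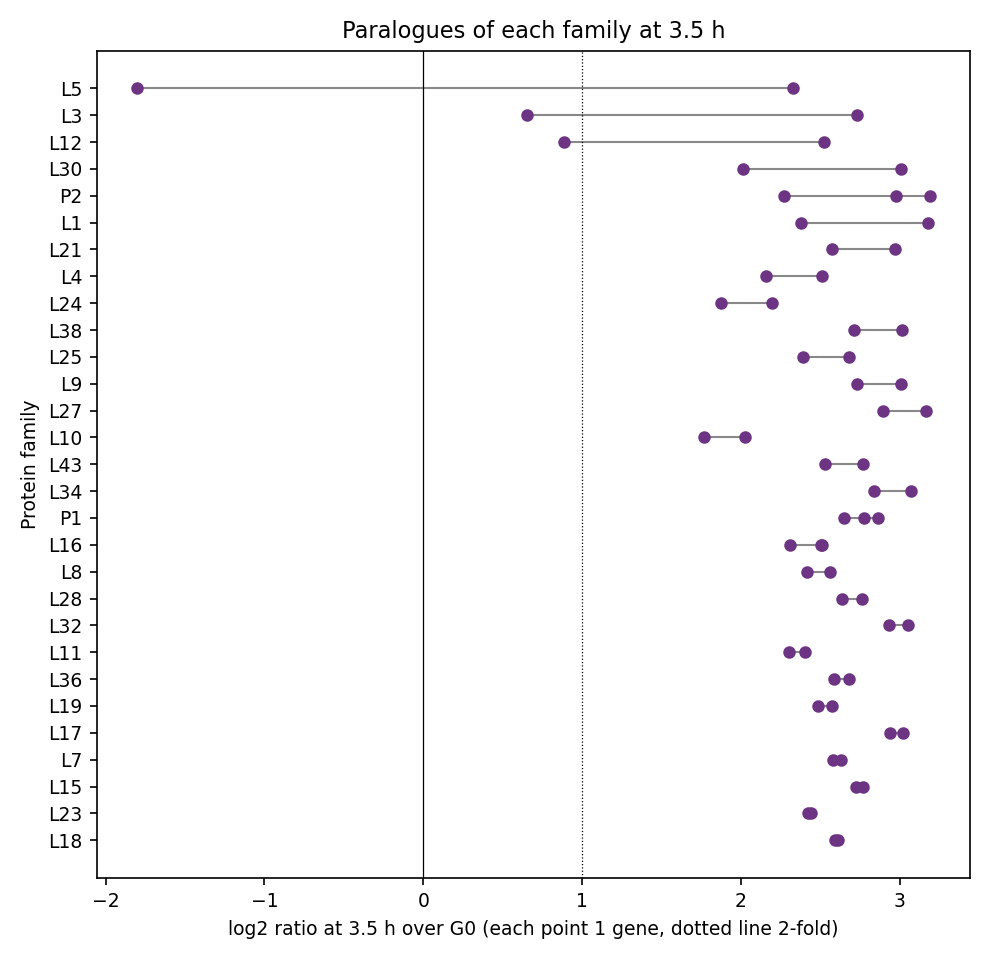
Log2 ratio at 3.5 h over G0 (horizontal axis) of the genes of each of the 29 families with at least 2 genes (vertical axis, ordered by the distance within the family), 1 point per gene. L5, L3 and L12 have 1 gene each left of the dotted 2-fold line, and the genes of the other families all lie right of it.

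Between 1 h and 2 h the large subunit genes hardly differed. No member was at least 2-fold higher or lower at 2 h, where 4.67% and 7.49% of all genes were, and the median difference was 0.05 against 0.01 over all genes. The extremes among members were rpl1102, at 2.37 at 2 h against 2.00 at 1 h, and rpl501, at -3.44 at 2 h against -2.79 at 1 h.

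At 3.5 h most members stood higher than at 2 h. The median difference was 0.43 over 74 members and 0.09 over all genes. Of the 74 members 64 differed upwards, where 2597 of 4767 genes did. Only 4 members were at least 2-fold higher and 0 lower, where 11.6% of all genes were higher and 10.4% lower. The members' share past 2-fold was thus below that of all genes. The 4 were rpl501 (a difference of 1.63), rpl1202 (1.34), rpl35 (1.22) and rpl31 (1.01). The first 2 of these lie outside the band, and without rpl501, rpl1202 and rpl301 the count was 2 of 72. Some members stood lower at 3.5 h, the lowest being rpl44 (-0.46), rpl18 (-0.23), rpl803 (-0.20), rpl2402 (-0.17), rpl402 (-0.15) and rpl401 (-0.12). This step crosses the 2 sets of columns.

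Among the genes in the band, the size of this step went with the family. Pairs of paralogues in the band had a median distance of 0.14 in their difference between 3.5 h and 2 h, against 0.34 for pairs of different families. The band leaves out rpl501, rpl1202 and rpl301 by their values, and with them pairs that were far apart at this step. The differences were 1.63 for rpl501 and 0.15 for rpl502, and 1.34 for rpl1202 and 0.34 for rpl1201. Medians with these genes included were not computed, so closeness within families partly reflects the picking. The pairs of L38 (0.76 and 0.79) and L32 (0.80 and 0.69) were examples with large values, and those of L4 (-0.12 and -0.15) and L11 (-0.01 and 0.04) with values near 0. With each array scaled to 1 median absolute deviation the 2 medians were 0.12 and 0.34, and with each print block centred they were 0.18 and 0.36. At the earlier step, from 1 h to 2 h, paralogues and other pairs were equally far apart (0.16 each), as they were between 6 h and vegetative cells (0.17 each). The 2 medians were 0.11 and 0.17 at 6 h against 3.5 h, and 0.12 and 0.26 at 3.5 h against vegetative cells.

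Grouped by place in the ribosome, a grouping made after the values were seen, the P1 and P2 genes and those of the tunnel mouth had the larger differences. The 6 P1 and P2 genes lay between 0.58 and 0.88 higher at 3.5 h, with a median of 0.71. The 8 tunnel mouth genes lay between 0.28 and 1.22 higher, with a median of 0.68. The 5 genes around the peptidyl transferase centre lay between -0.20 and 0.10, below all the members of the other 2 groups, and rpp0 was at 0.07. With each print block centred, the tunnel mouth genes were at 0.07 to 1.01 and the peptidyl transferase genes at -0.38 to -0.09, and the median of these last was -0.20 in place of 0.03. With each array scaled to 1 median absolute deviation they were at 0.62 to 1.60 and 0.18 to 0.49, so the order held under these scalings while the level shifted.

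**Figure D3:**
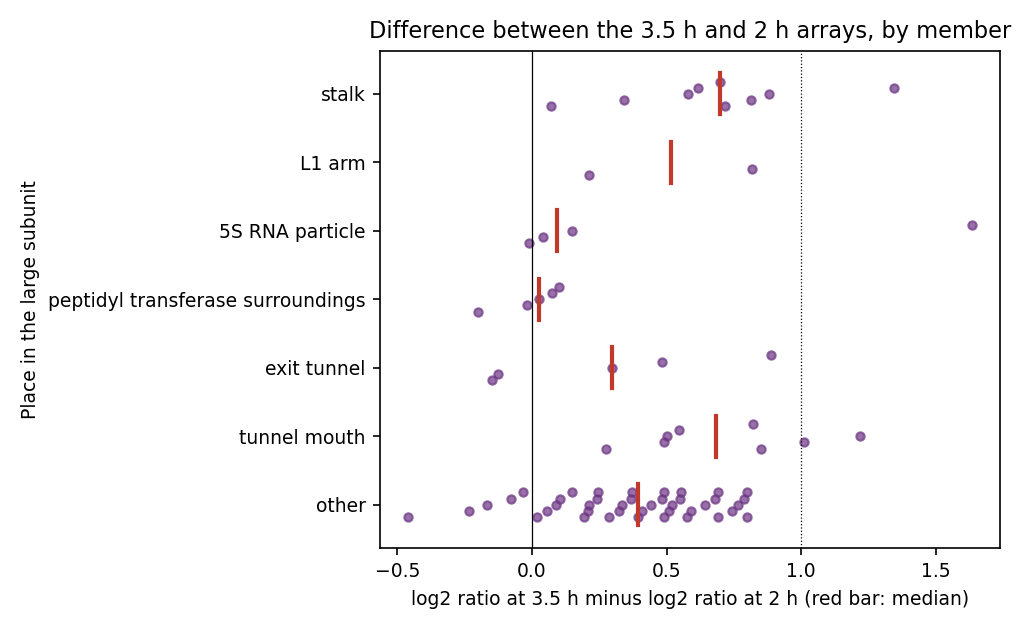
Difference between the log2 ratios at 3.5 h and at 2 h (horizontal axis) of the 74 members with both values, by place in the large subunit (vertical axis), 1 point per gene, with the median of each group in red and 2-fold as a dotted line. The stalk row holds rpp0, both L12 genes and the 6 P1 and P2 genes, and its P1 and P2 genes (0.58 to 0.88) and the tunnel mouth genes (0.28 to 1.22) lie right of the 5 genes around the peptidyl transferase centre (-0.20 to 0.10).

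At 6 h the members stood slightly lower than at 3.5 h. The median difference was -0.43 over 75 members and -0.09 over all genes. The only member that stood higher at 6 h was rpl501 (by 0.52), where 2081 of 4768 genes did. No member was 2-fold different, where 4.13% of all genes were higher and 2.85% lower. The differences of the 72 genes in the band ran from -0.75 for rpl35 to -0.04 for rpp0. With each array scaled to 1 median absolute deviation the median difference was -0.00691, so whether this step is seen depends on the scaling.

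Ratios at 3.5 h and 6 h were above those in vegetative cells. The medians at 1 h and 2 h, 2.19 and 2.26, were also above the vegetative 1.88, but with each array scaled to 1 median absolute deviation they were 1.77 and 1.99, below a vegetative 2.26. At 3.5 h, 12 of 75 members were at least 2-fold above vegetative cells and 1 was 2-fold below, where 7.91% and 8.12% of all genes were. The median difference was 0.79, against 0.07 over all genes. The 12 genes were rpl2501 (1.44), rpl35 (1.32), rpl29 (1.29), rpl1502 (1.24), rpp103 (1.20), rpp201 (1.20), rpl22 (1.11), rpp203 (1.11), rpl15 (1.11), rpl2302 (1.09), rpl3702 (1.03) and rpp102 (1.02). Of the 6 P1 and P2 genes 4 were thus among them. The gene that was lower at 3.5 h was rpl501, at -1.80 at 3.5 h against -0.77 in vegetative cells. Once arrays were scaled to 1 median absolute deviation, 4 members were 2-fold higher at 3.5 h and 0 lower, and the median difference was 0.47. All genes then had 9.59% higher and 9.38% lower, so that the members' share lay below that of all genes.

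At 6 h the median difference from vegetative cells was 0.34, against -0.002 over all genes. Above 0 were 70 of 75 members and 2365 of 4756 genes. No member reached 2-fold either way (2.54% of all genes higher, 3.03% lower). The largest differences were those of rpp201 (0.81) and rpl2501 (0.77). The 5 members that stood lower at 6 h were rpl501 (-0.52), rpl301 (-0.36), rpl1603 (-0.13), rpl1801 (-0.05) and rpl402 (-0.03).

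Of the 74 members with all values, 61 had their highest ratio at 3.5 h, 7 at 2 h, 5 at 1 h and 1, rpl501, in vegetative cells. Of all 4708 genes with all values 18.5% were highest at 3.5 h. The ratio was lowest in vegetative cells for 61 members and for 25.8% of all genes. These 2 counts rest on the scaling of the arrays. With each array scaled to 1 median absolute deviation 36 members were highest at 3.5 h and 4 were lowest in vegetative cells. Of all 4708 genes 828 and 1141 then were. Above vegetative cells at 3.5 h were still 68 of 74 members (2536 of the 4708 genes). As deposited this held for 73 of 74 members and 54.2% of all genes.

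A straight trend over the 4 times described none of the members well enough to be called. The log2 ratio was fitted on log2 hours with limma over 4730 genes, with 2 residual degrees of freedom. At a Benjamini-Hochberg adjusted p under 0.05, 0 of 74 members had a rising and 0 a falling trend, where 4.08% of all genes had a rising and 5.07% a falling one. At an unadjusted p under 0.05, 31.6% of all genes were called in either direction. Of the members 1 was called at this limit, rpl501, with a slope of 0.69 per doubling of time (SE 0.26, limma adjusted p = 0.118), and without the 1 h array it was called rising (slope 1.36, limma adjusted p = 0.0054). In the band the steepest slopes were those of rpl31 (0.37), rpl4302 (0.31), rpl4301 (0.28) and rpp202 (0.27) upwards and of rpl3002 (-0.30), rpl44 (-0.23), rpl18 (-0.20), rpl2402 (-0.17) and rpl102 (-0.16) downwards. Scaling each array to 1 median absolute deviation gave 38 members a rising trend at the unadjusted limit (30.9% of all genes either way), 0 after adjustment, and the median slope was 0.39 in place of 0.04. A single slope does not describe a profile with a high point at 3.5 h.

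Genes of the small subunit followed the large subunit on these arrays. Their medians were 2.25, 2.29, 2.69, 2.21 and 1.93. At least 2-fold higher were 43 of 44 genes at 1 h and 42 of 44 in vegetative cells (23.4% and 15.8% of all genes). The gene rps7, singled out after its values were seen, lay outside that set as rpl501 did among the members, at -2.64 at 1 h and -0.07 in vegetative cells. Genes for the large subunit of the mitochondrial ribosome did not share this level. Their medians were 0.07, 0.30, 0.51, 0.56 and 0.62. At 1 h 2 of 28 were at least 2-fold higher, below the share of all genes (23.4%). In vegetative cells 8 of 28 were, above that share (15.8%).

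Factors that assemble the large subunit were furthest above G0 at 1 h and 2 h. Of 27 listed assembly factors and chaperones, 25 were at least 2-fold higher at 1 h and 1 was lower, with a median of 2.91. At 3.5 h the median was 1.84 (24 higher, 1 lower), at 6 h 0.82 (13 higher, 1 lower) and in vegetative cells 0.81 (10 higher, 2 lower). The shares of all genes higher and lower were 23.4% and 22.6% at 1 h, and 18.9% and 16.7% at 3.5 h. They were 15.6% and 14.9% at 6 h, and 15.8% and 14.6% in vegetative cells. The dedicated chaperones of single large subunit proteins, known from budding yeast, were among the 27 listed: rrb1, the chaperone of L3, stood at 3.92, 3.73, 2.72, 1.89 and 1.25, and acl4, the chaperone of L4, at 3.72, 3.01, 2.55, 1.64 and 0.97. The chaperone gene of L10, sqt1, was at 1.41, 1.24, 1.12, 0.55 and 0.53. The 1 low gene at 1 h was bcp1 (-2.82), whose role under this symbol in fission yeast is not annotated in the sources used here. At 3.5 h, 12 of the 27 were at least 2-fold lower than at 2 h and 1 was higher, where 10.4% of all genes were lower and 11.6% higher. Of the 74 large subunit genes 0 were lower and 4 higher, below the share of all genes both ways. This step crosses the 2 sets of columns.

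**Figure D4:**
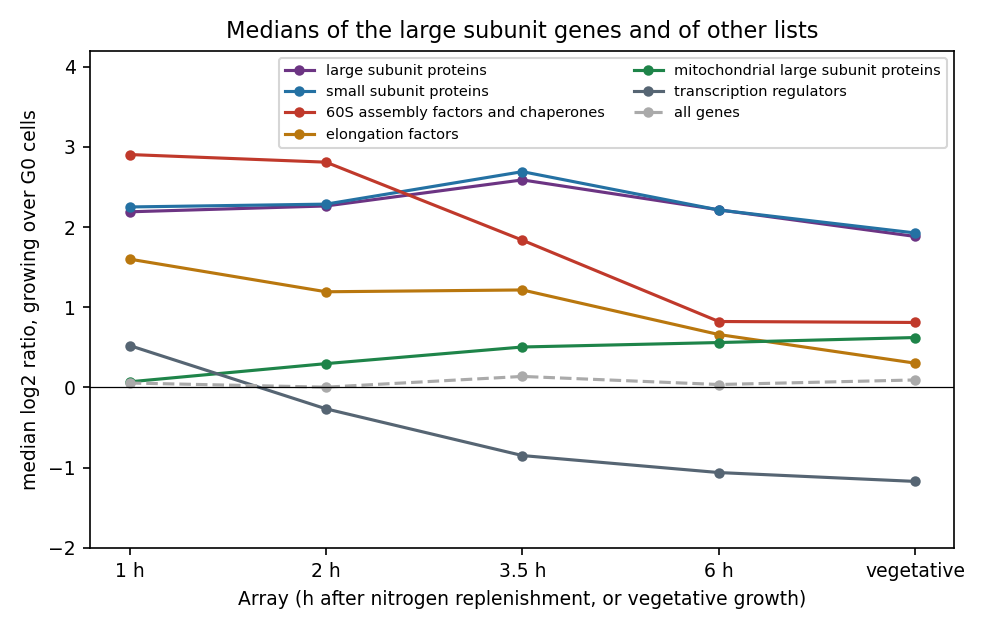
Median log2 ratio over G0 (vertical axis) of the large subunit genes, of 5 other lists and of all genes on the 5 arrays (horizontal axis). The 2 lines of cytosolic ribosomal proteins lie together with their highest point at 3.5 h (2.59 and 2.69), the assembly factors are at 2.91 at 1 h and at 0.81 in vegetative cells, and the mitochondrial ribosomal proteins stay at or below 0.62.

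Elongation factors that bind the stalk gave a mixed picture. The genes of elongation factor 2 were at 1.68, 1.71, 1.74, 1.18 and 0.39 for eft201 and at 1.52, 1.43, 1.42, 1.06 and 0.68 for eft202. Of the genes of elongation factor 1 alpha, tef101 and tef103 were at 1.82 and 1.92 at 1 h and tef102 at -1.26, a further case of 1 paralogue below G0. Median ratios of the 6 genes were 1.60, 1.19, 1.22, 0.66 and 0.30.

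Genes listed by symbol as transcription regulators of ribosomal protein genes did not share the members' level. Whether each of them, rap1 included, has that role in fission yeast was not tested. Medians of the listed genes were 0.52, -0.27, -0.85, -1.06 and -1.17 in array order. The zinc finger gene sfp1 stood at 1.502, 1.53, -1.21, -1.49 and -1.57 in array order, and ifh1 at 1.21, -0.24, -0.60, -0.69 and -0.55. The forkhead gene fhl1 was below G0 on all arrays, at -0.74, -1.27, -2.20, -2.64 and -2.75, as was rap1, at -0.39, -0.29, -1.10, -1.43 and -1.595. Among the 6 listed regulators with a value, 2 were 2-fold higher at 1 h, while in vegetative cells 3 were lower (23.4% of all genes higher at 1 h, 14.6% lower in vegetative cells). In the TOR branch, psk1, which encodes the kinase of a small subunit protein, stood at 1.53, 0.98, -1.48, -1.10 and -1.06, and tor2, the kinase gene of TOR complex 1, at 0.26, -0.07, 0.13, -0.20 and -1.01. At 1 h, 1 of these 6 genes was 2-fold higher and 1 lower, about the share of all genes (23.4% and 22.6%). In vegetative cells 4 were lower, where 14.6% of all genes were.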

How the data were processed

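The values deposited by the authors, 1 for each spot and array, were read as log2 ratios of Cy5 (growing cells) over Cy3 (G0 cells), with base 2 assumed and the dyes as the labels name them. Per the labels' protocols 3 to 6 µg of polyadenylated RNA was labelled with oligo dT. The sources used here do not say how images were read, background removed or ratios normalized. No spot intensity was used, so no filter on dim spots was set and the number of arrays limits the precision. The table had 5188 rows, of which 5184 were spots and 4 rows of averages were left out. Of the spots, 4865 had 1 annotated gene, 22 several and 297 none. Spots of 1 gene were averaged. For the last 3 arrays the description says 2 h where the title does not, and titles were followed.

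The members, families and lists were chosen with earlier results of these data known. Of 75 members 74 had an Entrez identifier in the RefSeq table of assembly ASM294v3 and 74 bore its symbol. The exception was rpl18, placed by symbol beside rpl1801. RefSeq tables served for names and neighbours, and no sequence was printed. A gene counted as different once its log2 ratio or difference reached 1 or -1, a limit on size without a p-value. The genes named were, per array, the 5 highest and 5 lowest members, all members under 2-fold, the largest differences between arrays, the families at least 2-fold apart, the stalk genes and the steepest trends. Tools were Python 3.11.15 with pandas 2.3.3 and numpy 2.4.6, and limma 3.58.1 in R 4.3.3. The trend step and the size rule were tested on simulated data.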

Additional observations from a re-analysis of the deposited data

Results flagged for a closer look

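The stalk base gene rpl1202 lay on opposite sides of G0 at successive times, at 0.89 at 3.5 h against -0.46 at 2 h, a difference of 1.34. It rests on 1 spot per array, the step crosses the 2 sets of columns, and the difference was not tested.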

How the results depend on the processing

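The directions of member medians against G0 were kept under the alternatives run. The same held for the median differences between successive times, and between 3.5 h or 6 h and vegetative cells. The 6 h against 3.5 h difference came close to 0, however. The order of the 1 h and 2 h medians against vegetative cells was not kept. Of the group medians at 3.5 h against 2 h, that of the peptidyl transferase surroundings turned to -0.11 with arrays centred and -0.20 with print blocks centred (0.03 as deposited), and that of the 5S RNA particle to -0.04 with arrays centred (0.09 as deposited). With each array scaled to 1 median absolute deviation, member medians became 1.77 (1 h), 1.99 (2 h), 2.71 (6 h) and 2.26 (vegetative), which puts 1 h and 2 h below vegetative cells. At 3.5 h against 2 h the median was then 0.78 with 18 members 2-fold higher (10.2% of all genes), and at 6 h against 3.5 h it was -0.00691. Against vegetative cells 4 members were higher and 0 lower at 3.5 h (median 0.47, with 9.59% and 9.38% of all genes), and 1 was higher at 6 h (4.46%). The counts highest at 3.5 h and lowest in vegetative cells were 36 and 4 of 74 members (828 and 1141 of 4708 genes). This scaling of array order was chosen after seeing the data. With print blocks centred the median at 3.5 h was 2.36. Then 1 member was 2-fold lower in vegetative cells (16.9% of all genes) and 1 was higher at 6 h than in vegetative cells (2.75%). Read as natural logs, the medians were 3.16, 3.27, 3.74, 3.20 and 2.72, with 1 member lower in vegetative cells (21.6% of all genes). Under this reading 17 members were higher at 3.5 h than at 2 h (19.7% of all genes) and 7 lower at 6 h than at 3.5 h (9.42%). Above vegetative cells were 2 at 6 h (6.67%) and 47 at 3.5 h (17.4%, member median 1.15), and 6 families were 2-fold apart at 3.5 h. A 1.5-fold rule gave 1 member lower in vegetative cells (24.4% of all genes), 1 lower at 2 h than at 1 h (16.3%), 23 higher at 3.5 h than at 2 h (23.8%), 16 lower at 6 h than at 3.5 h (14.4%), and 4 at 6 h (9.57%) and 54 at 3.5 h (21.4%) higher than in vegetative cells. A 4-fold rule gave 0 lower at 3.5 h and 6 h (6.01% and 4.98% of all genes) and 28 higher in vegetative cells (2.94%). It gave 0 higher at 3.5 h than at 2 h (2.58%), and 0 either way between 3.5 h and vegetative cells (0.589% higher, 1.51% lower). Without rpl501, rpl1202 and rpl301, left out after seeing the data, 0 members were lower at 1, 2, 3.5 or 6 h, 2 were higher at 3.5 h than at 2 h and 0 lower at 3.5 h than in vegetative cells. Without the 1 h array the limma trend called 1 member, rpl501, rising (slope 1.36, adjusted p = 0.0054); over the alternatives its adjusted p went up to 0.586. Over all genes, higher and lower calls at 3.5 h were 707 and 994 with print blocks centred (902 and 800 as deposited). At 3.5 h against 2 h they were 439 and 625 with arrays centred and 414 and 674 with blocks centred (554 and 497), at 6 h against 3.5 h 254 and 94, and 260 and 80 (197 and 136), and at 2 h against 1 h 110 and 278 with arrays scaled (222 and 356). The causes of these shifts were not tested. The alternative without members of identical protein was not run. No paired analysis was possible because each condition had 1 array. Depth and signal over background are unknown, so dim spots cannot be told from bright ones.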
